A study of Mus musculus with 8 samples.

Results

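The genes described here were bright in 2 samples of this series, the saline sample and the N-terminal peptide sample labelled with Cy3 (replicate 1 of each group), and dim in the Cy3 sample of the Nt8U group. They were chosen by the signal of the array probes. A probe had to reach a median signal of 5000 intensity units in both bright samples, lie at most 4-fold apart between them, and stay below 300 in Nt8U replicate 1. Of 41174 probes, 48 met these signals, and 11 of them were left out because their gene symbol starts with Lcn, Defb, Adam, Spink or Crisp. Related genes with other symbols, such as the lipocalin Ptgds and the beta-defensin-like Spag11a, stayed in. The remaining 37 probes stand for 34 named genes, with 2 probes each for Ces5a and Ap1s2, and for 1 probe without a gene name. All 37 of 37 also passed the filter on dim probes, which asked that some group have both of its samples well above background. The levels in the 3 choosing samples, and every difference that contains them, are therefore a description and not a result.

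Nearest inside the threshold for saline replicate 1 were Epcam at 5231 and Cracdl at 5767.5 intensity units, and nearest outside were Gstm7 at 4985 and Mboat1 at 4871. For N-terminal peptide replicate 1 the nearest inside were Rnf128 at 5021 and Epcam at 5830, and outside Agr2 at 4928 and Nhsl1 at 4700.5. Inside the upper limit for Nt8U replicate 1 lay St6gal1 at 293.5 and Cad at 275, and outside it Krt8 at 300 and Hoxb7 at 306. In all, 1102 probes outside the left-out families missed this limit alone. Between both bright samples Egr2 differed by 3.58-fold and Wfdc15b by 3.32-fold, and the limit of 4-fold left out no further probe.

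RNA was measured on 4 2-colour Agilent whole mouse genome arrays that shared 1 slide. CFT Swiss albino mice aged 5 weeks were injected intraperitoneally for 8 days with saline, with obestatin, with its N-terminal peptide, or with Nt8U, an analog of that fragment, and every group was kept on restricted feeding hours. Obestatin is a peptide cut from the precursor of the stomach hormone ghrelin. The stated dose is 80 ng/kg with 6 mice per group in the design text and 80 nmol/kg with 3 mice per group in the growth protocol, and these statements were not reconciled. Each group has 2 samples, replicate 1 in Cy3 and replicate 2 in Cy5, both on the same array. The channels were tied to samples by the deposited readme. The authors' deposited log2 table carries the opposite dye labels, under which replicates 1 and 2 would trade places in every group, with the groups unchanged. Array and group therefore cannot be told apart, and the labels leave unsaid whether separate mice or pools gave the samples, so a p-value covers only the spread between these samples. The source is named epididymal fat pad, whereas titles name epididymal tissue.

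The epididymis is a coiled duct between testis and vas deferens in which sperm mature. Its lining epithelium is sealed by tight junctions, exchanges ions and nutrients with the lumen, and secretes protease inhibitors, defensins, lipocalins and enzymes that coat sperm. Many such genes are expressed in short stretches of the duct, so that neighbouring segments differ in their transcripts, and many depend on androgens. The epididymal fat pad is attached to this duct.

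The name epididymal was checked against lists of genes. Of 41 listed epididymal genes outside the left-out families, 31 were on the array and 5 of them were among the chosen genes, namely Spag11a, Rnase9, Cuzd1, Ptgds and Eppin. Of 18 epididymis epithelium markers, 2 were chosen, Spag11a and Rnase9. The 11 left-out probes with the same signals were Lcn5, Adam7, Crisp1, Spink5, Spink8, Spink12, Defb12, Defb15, Defb29, Defb35 and Defb42, and several of these families are known from the epididymis. Other chosen genes, such as Epcam, Cldn3 and Cldn7, are markers of epithelia in general. The set is called the shared epididymal genes here on the strength of the listed genes it holds, and the name was not checked for the rest.

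The samples differed widely in marker genes of several cell types. Testis germ cell markers, 12 genes, had a median of 15.80 on the normalized log2 scale in saline replicate 2, 15.22 in N-terminal peptide replicate 2 and 14.66 in Nt8U replicate 2, against 8.93 to 12.43 in the other 5 samples. Epididymis epithelium markers, 18 genes, had medians of 16.28 in saline replicate 1, 10.45 in saline replicate 2, 11.22 in N-terminal peptide replicate 1 and 6.44 to 10.09 in the others. Adipocyte markers were well above background for 8 of 8 genes in every sample, with medians from 8.83 in N-terminal peptide replicate 2 to 15.88 in Nt8U replicate 1. Of 6 seminal vesicle markers, 0 to 3 were well above background in a sample and their medians lay between 6.00 and 6.33. In bulk tissue fewer cells of a type and less RNA per cell cannot be told apart.

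**Figure D1:**
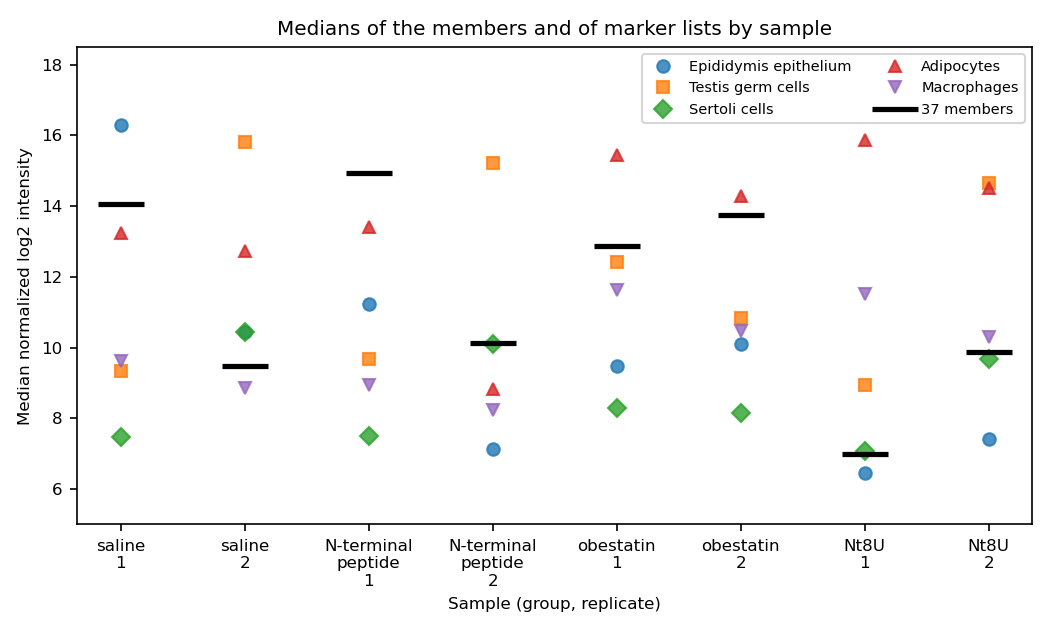
Median normalized log2 intensity (y axis) of the 37 shared epididymal probes (black bars) and of 5 marker lists (coloured symbols) in each of the 8 samples (x axis). The germ cell median is above 14 in replicate 2 of saline, the N-terminal peptide and Nt8U, and in those samples the black bars are at 9.47, 10.13 and 9.88.

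Of the 34 named genes, 28 had at least 1 promoter in the RefSeq table (36 promoters, each from 250 bases before to 50 bases after the start). Shown are the promoters of the 2 highest and the 2 lowest of these 28 genes in Nt8U replicate 2, each gene ranked by its brightest chosen probe, because the set ranged widely in that sample. They are given 5′ to 3′ on the strand of the gene, from RefSeq on GRCm38.p6, and capitals mark a match on either strand to TGTTCT (part of an androgen response element), AGGAAG (a site type of PEA3 ETS factors) or TATAAA. Wfdc15b lies at chr2:164221614-164221913 on the minus strand and Serpina1f at chr12:103695480-103695779 on the minus strand. Epp13, shown by the first of its 2 promoters, lies at chr7:6252460-6252759 on the plus strand, and AY761185 at chr8:20944699-20944998 on the minus strand.
Wfdc15b: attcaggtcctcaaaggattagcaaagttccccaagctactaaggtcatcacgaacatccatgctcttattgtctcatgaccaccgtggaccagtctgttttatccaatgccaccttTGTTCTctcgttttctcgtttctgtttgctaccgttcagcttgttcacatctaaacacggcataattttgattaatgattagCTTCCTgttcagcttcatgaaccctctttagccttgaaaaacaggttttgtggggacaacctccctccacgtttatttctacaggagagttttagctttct
Serpina1f: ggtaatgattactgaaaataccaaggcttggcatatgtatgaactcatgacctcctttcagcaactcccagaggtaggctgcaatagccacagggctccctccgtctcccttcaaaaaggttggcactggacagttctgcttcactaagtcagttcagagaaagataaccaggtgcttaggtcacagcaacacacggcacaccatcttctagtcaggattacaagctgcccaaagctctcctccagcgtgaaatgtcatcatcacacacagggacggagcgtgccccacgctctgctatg
Epp13: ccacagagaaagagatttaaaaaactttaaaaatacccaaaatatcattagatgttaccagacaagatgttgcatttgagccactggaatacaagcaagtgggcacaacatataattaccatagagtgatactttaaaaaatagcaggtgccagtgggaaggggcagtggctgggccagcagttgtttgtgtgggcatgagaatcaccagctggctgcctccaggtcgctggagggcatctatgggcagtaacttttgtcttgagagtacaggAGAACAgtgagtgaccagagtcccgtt
AY761185: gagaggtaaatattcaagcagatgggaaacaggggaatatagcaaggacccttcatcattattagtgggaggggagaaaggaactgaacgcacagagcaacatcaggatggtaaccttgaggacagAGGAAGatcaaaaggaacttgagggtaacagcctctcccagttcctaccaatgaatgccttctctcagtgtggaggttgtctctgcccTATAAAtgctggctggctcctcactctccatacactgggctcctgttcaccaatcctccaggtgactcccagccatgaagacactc

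TGTTCT was found in 6 of 36 promoters of the chosen genes (16.7%) and in 19.0% of all 32851 promoters. AGGAAG was found in 13 of 36 (36.1%) and in 35.4% of all. TATAAA was found in 2 of 36 (5.56%) and in 13.6% of all. Among the promoters shown, Wfdc15b holds TGTTCT 133 bases before the start and AGGAAG on the opposite strand 51 bases before it. Epp13 holds TGTTCT on the opposite strand after the start, AY761185 holds AGGAAG and TATAAA, and Serpina1f holds none of these. A match is a description of letters and not of factor binding, and no test was made.

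The first question was whether genes chosen in saline and the N-terminal peptide were also present in the obestatin samples, which took no part in the choice. All 37 probes were well above background in both, and all 37 lay above the 75th percentile of all probes there. Of all 41174 probes, 26921 and 29342 were well above background in obestatin replicates 1 and 2. Over all probes kept, Pearson's r between the bright choosing samples and the obestatin samples lay between 0.91 and 0.97. High levels with obestatin therefore partly follow from the choice of bright probes. The median normalized log2 level of the 37 probes was 12.87 in obestatin replicate 1 and 13.75 in replicate 2, against 75th percentiles of 9.36 and 9.27. In the choosing samples the medians were 14.05 in saline replicate 1, 14.95 in N-terminal peptide replicate 1 and 6.98 in Nt8U replicate 1. In the Cy5 samples that shared an array with them the medians were 9.47, 10.13 and 9.88, and 17, 20 and 22 of the 37 probes lay above the 75th percentile. The shared genes were thus high in 4 of 8 samples, both obestatin samples among them, and spread from low to high in 3 others. Some values are limited by the scanner: 3 of the 37 probes were saturated in saline replicate 1, 4 in N-terminal peptide replicate 1 and 5 in obestatin replicate 2, so that levels there are understated, and 12 were not well above background in Nt8U replicate 1.

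**Figure D2:**
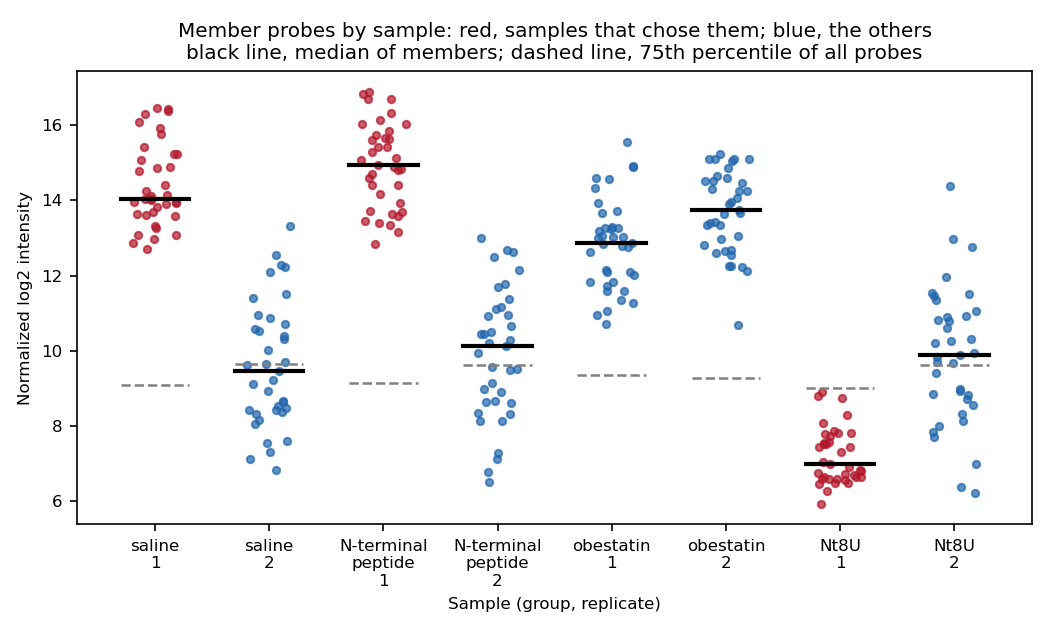
Normalized log2 intensity (y axis) of each of the 37 shared epididymal probes (points) in the 8 samples (x axis), red where the sample chose the probes and blue where it did not, with the median (black line) and the 75th percentile of all probes (dashed). Every point lies above the dashed line in both obestatin samples, which were not used to choose the probes.

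**Figure D3:**
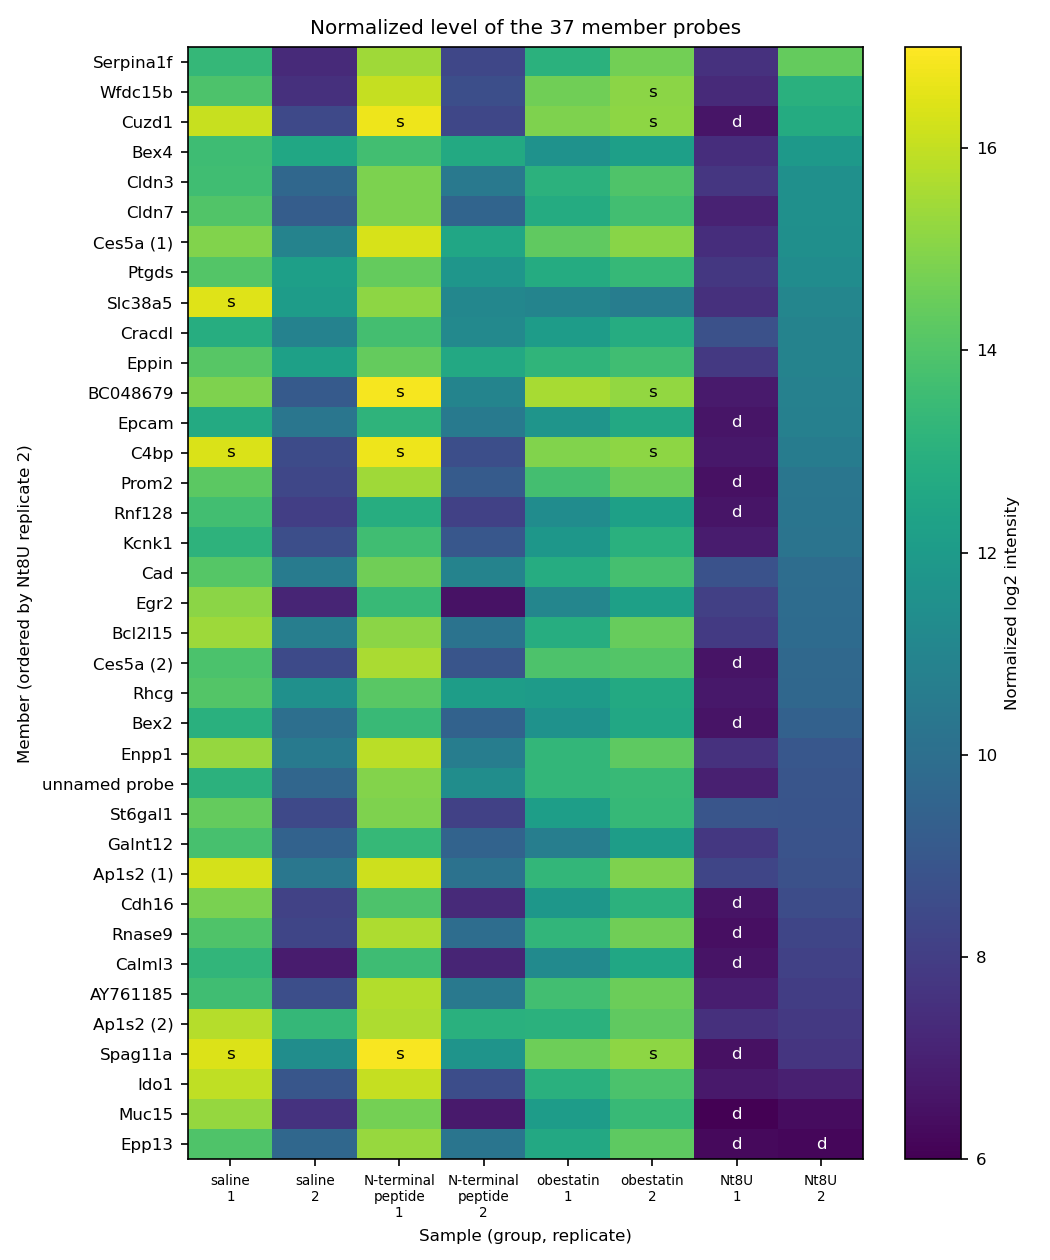
Normalized log2 intensity (colour) of the 37 probes (rows, ordered by Nt8U replicate 2) in the 8 samples (columns), with s for saturated and d for not well above background. Bright columns are replicate 1 of saline and of the N-terminal peptide and both obestatin samples, and the Nt8U replicate 2 column runs from 14.39 for Serpina1f to 6.21 for Epp13.

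By role, 10 genes (11 probes) encode proteins known or predicted to act in the lumen of the duct or outside cells, a grouping made after the values were seen. Their median level was 13.93 and 14.64 with obestatin, 14.04 and 8.53 with saline, 15.63 and 9.95 with the N-terminal peptide, and 6.69 and 10.90 with Nt8U (replicates 1 and 2). Spag11a, a beta-defensin-like protein of the epididymal epithelium, stood at 16.44 and 11.40 with saline, 14.56 and 15.11 with obestatin, 16.89 and 11.71 with the N-terminal peptide, and 6.48 and 7.70 with Nt8U. Its spot was saturated in saline replicate 1, N-terminal peptide replicate 1 and obestatin replicate 2, and not well above background in Nt8U replicate 1. Rnase9, a secreted member of the ribonuclease A family, stood at 13.97 and 8.31 with saline, 13.24 and 14.60 with obestatin, 15.63 and 9.95 with the N-terminal peptide, and 6.46 and 8.32 with Nt8U. Both genes were higher in both obestatin samples than in replicate 2 of any other group, and Spag11a was lower in Nt8U replicate 2 than in the other Cy5 samples.

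Several luminal proteins restrain proteases. Eppin, a protease inhibitor on the sperm surface, stood at 14.14 and 12.27 with saline, 13.18 and 13.64 with obestatin, 14.40 and 12.64 with the N-terminal peptide, and 7.81 and 10.90 with Nt8U. Wfdc15b, a WAP domain protein, stood at 13.92 and 7.54 with saline, 14.60 and 15.10 with obestatin, 16.03 and 8.64 with the N-terminal peptide, and 7.31 and 12.97 with Nt8U. Serpina1f, of the serpin family, stood at 13.31 and 7.31 with saline, 13.04 and 14.64 with obestatin, 15.42 and 8.35 with the N-terminal peptide, and 7.55 and 14.39 with Nt8U. Eppin varied least of the 3 among the Cy5 samples, and Wfdc15b and Serpina1f were low in saline and N-terminal peptide replicate 2 and high in replicate 2 of obestatin and Nt8U.

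Cuzd1, with CUB and zona pellucida-like domains, stood at 16.08 and 8.43 with saline, 14.89 and 15.11 with obestatin, 16.70 and 8.33 with the N-terminal peptide, and 6.64 and 12.76 with Nt8U. C4bp, the C4b-binding protein that inhibits complement, stood at 16.38 and 8.53 with saline, 14.92 and 15.11 with obestatin, 16.71 and 8.65 with the N-terminal peptide, and 6.69 and 10.60 with Nt8U. Both were saturated in N-terminal peptide replicate 1 and obestatin replicate 2, and C4bp also in saline replicate 1. Ptgds, which makes prostaglandin D and is itself a secreted lipocalin, stood at 14.04 and 12.23 with saline, 12.78 and 13.35 with obestatin, 14.40 and 11.78 with the N-terminal peptide, and 7.79 and 11.35 with Nt8U. Epp13, an epididymal protein, stood at 13.96 and 9.66 with saline, 12.63 and 14.26 with obestatin, 15.29 and 10.29 with the N-terminal peptide, and was not well above background in either Nt8U sample (6.27 and 6.21). Ptgds kept a level above 11 in all samples but Nt8U replicate 1, whereas Cuzd1 and C4bp were below 9 in saline replicate 2 and N-terminal peptide replicate 2.

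Ces5a, a secreted carboxylesterase known from the epididymis and, in the cat, from urine, had 2 probes. The first (A_52_P386584) stood at 14.90 and 10.94 with saline, 14.33 and 15.06 with obestatin, 16.33 and 12.50 with the N-terminal peptide, and 7.45 and 11.47 with Nt8U. The second (A_52_P500112) stood at 13.90 and 8.49 with saline, 13.93 and 14.06 with obestatin, 15.62 and 8.90 with the N-terminal peptide, and 6.58 and 9.71 with Nt8U. The order of the samples was similar for both, but in the Cy5 samples of saline, the N-terminal peptide and Nt8U the second was lower in relation to its own obestatin level than the first.

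At the cell surface, 10 genes had a median level of 12.06 and 13.22 with obestatin, 14.14 and 9.46 with saline, 14.77 and 10.01 with the N-terminal peptide, and 6.78 and 10.27 with Nt8U. Epcam, the epithelial cell adhesion molecule, stood at 12.71 and 10.32 with saline, 11.73 and 12.66 with obestatin, 13.15 and 10.51 with the N-terminal peptide, and 6.64 and 10.78 with Nt8U. Cldn3 and Cldn7 are claudins of the tight junction. Cldn3 stood at 13.62 and 9.69 with saline, 13.05 and 13.97 with obestatin, 14.82 and 10.45 with the N-terminal peptide, and 7.73 and 11.54 with Nt8U. Cldn7 stood at 14.02 and 9.23 with saline, 12.76 and 13.66 with obestatin, 14.85 and 9.56 with the N-terminal peptide, and 7.04 and 11.52 with Nt8U. In Nt8U replicate 2 these epithelial genes exceeded saline replicate 2, Cldn7 by more than Epcam.

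Cdh16, a cadherin of tubular epithelia, stood at 14.78 and 8.15 with saline, 11.83 and 13.05 with obestatin, 13.94 and 7.29 with the N-terminal peptide, and 6.57 and 8.56 with Nt8U. Muc15, a membrane mucin, stood at 15.24 and 7.61 with saline, 12.10 and 13.40 with obestatin, 14.71 and 6.78 with the N-terminal peptide, and 5.93 and 6.38 with Nt8U. Rhcg, an ammonia transporter, stood at 14.05 and 11.50 with saline, 12.02 and 12.67 with obestatin, 14.18 and 12.14 with the N-terminal peptide, and 6.73 and 9.67 with Nt8U. Of these 3, Rhcg had the smallest gap between the samples of saline. The potassium channel gene Kcnk1, the prominin gene Prom2 and Enpp1, which makes extracellular pyrophosphate, lay between 11.84 and 14.51 in both obestatin samples.

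Slc38a5, an amino acid transporter, departed most from the other surface genes. It stood at 16.47 and 12.09 with saline, 10.95 and 10.68 with obestatin, 15.14 and 11.10 with the N-terminal peptide, and 7.53 and 11.05 with Nt8U. Its spot was saturated in saline replicate 1. Both obestatin samples were below both saline samples, and obestatin replicate 1 was 18.2-fold below N-terminal peptide replicate 1.

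Inside the cell, 11 genes (12 probes) had a median level of 11.87 and 12.98 with obestatin, 14.25 and 9.74 with saline, 14.15 and 9.50 with the N-terminal peptide, and 7.66 and 9.13 with Nt8U. Ido1, which opens the kynurenine pathway of tryptophan breakdown, stood at 15.94 and 8.93 with saline, 13.00 and 13.90 with obestatin, 16.04 and 8.60 with the N-terminal peptide, and 6.74 and 6.98 with Nt8U. St6gal1, a sialyltransferase of the Golgi, stood at 14.40 and 8.42 with saline, 12.15 and 13.36 with obestatin, 14.89 and 8.13 with the N-terminal peptide, and 8.90 and 8.84 with Nt8U. Egr2, a zinc finger transcription factor, stood at 15.09 and 7.12 with saline, 11.06 and 12.26 with obestatin, 13.41 and 6.52 with the N-terminal peptide, and 8.07 and 9.88 with Nt8U. Ido1 and St6gal1 were low in both Nt8U samples, and Egr2 had the widest gap between the saline samples of all 37 probes (7.97 on the log2 scale). Egr2 was printed as 10 spots per array, and their log2 signals had an SD of 0.12 to 0.17 within a sample.

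Ap1s2, a subunit of the adaptor complex that sorts cargo at the Golgi, had 2 chosen probes that disagreed. One (A_51_P435317) stood at 16.30 and 10.38 with saline, 13.30 and 14.87 with obestatin, 16.15 and 10.13 with the N-terminal peptide, and 8.29 and 8.71 with Nt8U. The other (A_51_P435321) stood at 15.78 and 13.31 with saline, 13.02 and 14.30 with obestatin, 15.65 and 13.00 with the N-terminal peptide, and 7.51 and 7.84 with Nt8U. The gap between the samples of saline, and between those of the N-terminal peptide, was wider for the first probe than for the second, while the order within obestatin and within Nt8U was the same for both. In all, 10 further probes of St6gal1, Ap1s2, Cad, Prom2, C4bp, Muc15 and Cracdl did not meet the signals, 2 of them for Cad missing only the limit in Nt8U replicate 1.

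Bex2 and Bex4 are small X-linked proteins. Bex4 stood at 13.59 and 12.54 with saline, 11.59 and 12.23 with obestatin, 13.69 and 12.68 with the N-terminal peptide, and 7.43 and 11.96 with Nt8U, and it varied less than any other chosen gene among the 7 samples outside Nt8U replicate 1. Calml3, a calmodulin-like protein, stood at 13.26 and 6.83 with saline, 11.27 and 12.54 with obestatin, 13.58 and 7.13 with the N-terminal peptide, and 6.59 and 8.13 with Nt8U. The others were Cad, which begins pyrimidine synthesis, Galnt12, which begins mucin-type O-glycosylation, the ubiquitin ligase gene Rnf128, and Bcl2l15 of the Bcl2 family, with levels from 10.72 to 14.46 in the obestatin samples. Bex2 stood at 11.59 and 12.61 there.

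For 4 probes no role is given. BC048679 stood at 14.86 and 9.12 with saline, 15.56 and 15.23 with obestatin, 16.83 and 10.95 with the N-terminal peptide, and 6.80 and 10.83 with Nt8U. AY761185 stood at 13.63 and 8.65 with saline, 13.66 and 14.52 with obestatin, 15.75 and 10.45 with the N-terminal peptide, and 6.91 and 8.00 with Nt8U. Both genes were higher in each obestatin sample than in either saline sample, AY761185 narrowly so for replicate 1, and BC048679 was saturated in obestatin replicate 2 and N-terminal peptide replicate 1. Cracdl and the unnamed probe lay between 12.09 and 13.43 with obestatin.

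The samples of a group were then set beside each other. Within obestatin the 37 probes differed by a median of 0.91 on the log2 scale between replicates, from 0.13 for a Ces5a probe to 1.64 for Epp13. Over all probes kept the median gap was 0.25, so the set lay further apart than a typical probe. The gaps of the 5 probes saturated in obestatin replicate 2 are inexact. At least 4-fold higher in replicate 2 were 0 of 37, against 0.0355% of all 28166 probes kept, and at least 4-fold lower were 0 of 37, against 0.0888%. Without loess, 25 of 37 were at least 4-fold higher in replicate 2, so the count of 0 rests on that step. The share of all probes was not computed without loess, so that count is no result about the set. Within saline the median gap was 4.79 and 33 of 37 probes differed by over 4-fold, against 22.4% of all probes. Within the N-terminal peptide it was 5.18, with 35 of 37 and 26.0%, and within Nt8U it was 2.82, with 20 of 37 and 12.6%. The gaps of the last 3 groups contain a choosing sample, so they partly follow from the choice, while that of obestatin does not. Germ cell markers were also closest within obestatin, at 12.43 and 10.84. The part of testis RNA in these gaps was not tested.

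Levels in obestatin replicate 1 were set against those in both bright choosing samples. This is a description across 37 probes that share arrays, dyes, tissue and probe sequences and are no replicates, and the choice had restricted the levels in both choosing samples. Pearson's r between obestatin replicate 1 and N-terminal peptide replicate 1 was 0.88, and 0.82 over the 33 probes that were not saturated. Between obestatin replicate 1 and saline replicate 1 it was 0.35, and between both obestatin samples 0.91. Over all 28166 probes kept, the same 3 values were 0.93, 0.91 and 0.97, so that the unequal r of the set was not seen over all probes. Obestatin replicate 1 lay below N-terminal peptide replicate 1 for 37 of 37 probes, by a median of 2.08 on the log2 scale and an SD of 0.58 across probes (the median difference was -2.08). Against saline replicate 1 the median difference was -1.34 with an SD of 1.32, from -5.52 for Slc38a5 to 0.70 for BC048679. Slc38a5 was saturated in saline replicate 1, so that its difference is understated, and 5 of 37 probes were higher in obestatin replicate 1 than in saline replicate 1. Both choosing samples had to be bright, so these directions partly follow from the choice, and the shares of all probes were not computed.

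**Figure D4:**
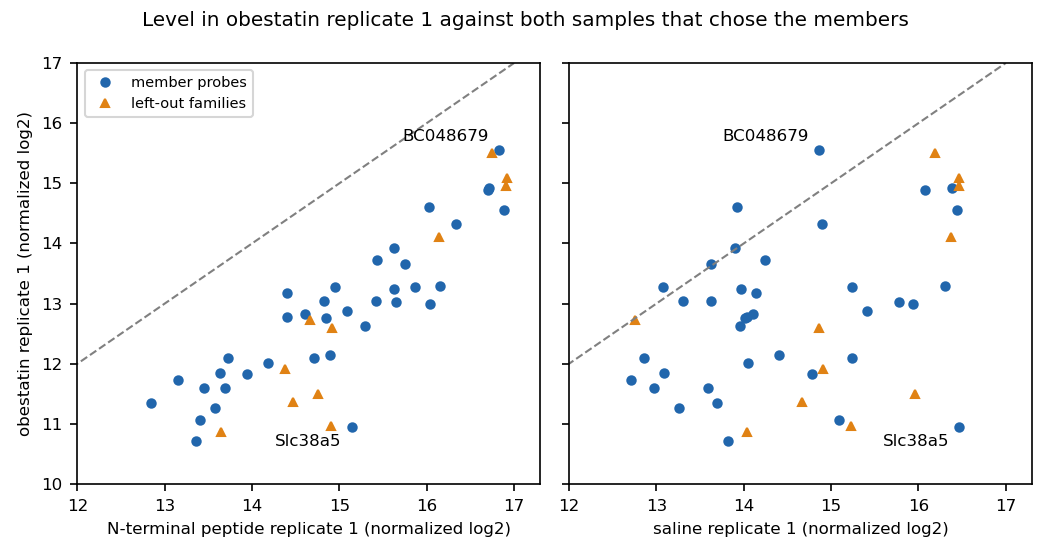
Normalized log2 intensity in obestatin replicate 1 (y axes) against N-terminal peptide replicate 1 (left x axis) and saline replicate 1 (right x axis) for the 37 shared probes (circles) and the 11 left-out probes (triangles), with the line of equality dashed. On the left all points lie below the line with Slc38a5 furthest below it, and on the right some circles, BC048679 among them, lie above the line.

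Replicate 2 of each peptide group was compared with replicate 2 of saline, all in Cy5, which were not used to choose the probes, though each was normalized together with the other channel of its array. With 1 sample on each side there is no test, and a 4-fold difference was taken as the mark. In obestatin replicate 2, 30 of 37 probes (81.1%) were at least 4-fold higher than in saline replicate 2, against 6.67% of all probes, and 0 were at least 4-fold lower, against 15.7%. The median difference was 4.35 on the log2 scale, with quartiles of 2.66 and 5.71. Wfdc15b was 189-fold, Serpina1f 160-fold, Cuzd1 103-fold, C4bp 95.7-fold and Rnase9 78.3-fold higher, and of these Wfdc15b, Cuzd1 and C4bp were saturated in obestatin, so that their folds are understated. The 7 probes below the mark were Slc38a5 (log2 difference -1.40), Bex4 (-0.30), an Ap1s2 probe (2.00-fold higher), Ptgds (log2 difference 1.12), Rhcg (1.17), Eppin (1.37) and Cracdl (1.96). The germ cell markers moved the other way, with 9 of 12 at least 4-fold lower in obestatin replicate 2 and a median of -4.27. Markers of connective and vascular cells moved the same way as the set, with 5 of 5 fibroblast (median 2.72), 5 of 5 smooth muscle (2.64) and 3 of 5 endothelial markers (2.04) at least 4-fold higher. The part of either kind of cell in the difference was not tested. In the authors' deposited log2 values, whose dye labels are opposite, the sample labelled obestatin replicate 2 had 0 probes at least 4-fold higher and 14 lower than that labelled saline replicate 2. Those columns follow the green channel, so saline replicate 1, a choosing sample, entered that count, which partly follows from the choice. The share of all probes was not computed with those values.

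In N-terminal peptide replicate 2 the shared genes stood near their levels in saline replicate 2. At least 4-fold higher were 0 of 37 probes, against 0.0284% of all, and at least 4-fold lower were 0 of 37, against 0.458%. The median difference was 0.30 with an SD of 0.76 across probes, from -0.99 for Slc38a5 to 1.83 for BC048679. The highest of these differences, of BC048679, AY761185, the unnamed probe, Rnase9 and a Ces5a probe, were all below the mark. Without loess 5 probes passed it on the higher side, and with the processed signals 3, with no share of all probes computed for either. Adipocyte markers were lower in the same comparison, with 7 of 8 at least 4-fold lower and medians of 8.83 against 12.72, and their part was not tested.

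Nt8U replicate 2 divided the set. In it 7 of 37 probes (18.9%) were at least 4-fold higher than in saline replicate 2, against 2.38% of all probes, and 3 of 37 (8.11%) were at least 4-fold lower, against 0.146%. Higher were Serpina1f by 135-fold, Wfdc15b by 43.1-fold, Cuzd1 by 20.2-fold, Egr2 by 6.78-fold, Cldn7 by 4.89-fold, Rnf128 by 4.61-fold and C4bp by 4.18-fold. Lower were 1 of the Ap1s2 probes by 44.2-fold, Spag11a by 12.9-fold and Epp13 by at least 10.9-fold, the last a bound because Epp13 was not well above background in Nt8U. The probes of Ap1s2 disagreed here: the other chosen probe was 3.18-fold lower, and of 2 further probes A_51_P113144 stood at 9.15 in Nt8U against 7.77 in saline and A_52_P488596 at 7.58 against 8.01. The median difference was 0.02 and the SD across probes 2.42, while germ cell markers, with medians of 14.66 and 15.80, differed by a median of -0.91. Other cell types differed more, with 5 of 5 smooth muscle markers (median 4.61), 4 of 5 fibroblast markers (2.60) and 4 of 8 adipocyte markers (1.72) at least 4-fold higher in Nt8U replicate 2, and their part in the split was not tested. Pearson's r between Nt8U replicate 2 and any other sample lay between -0.20 and 0.29 across the 37 probes, whereas it was 0.90 between saline replicate 2 and N-terminal peptide replicate 2, and over all probes kept these values were 0.78 to 0.93 and 0.98. Without loess the higher count was 11, and with the scanner software's processed signals the lower count was 7, with no share of all probes computed for either. Nt8U replicate 2 thus held part of the set at high and part at low levels. The set also ranged widely in replicate 2 of saline (6.83 to 13.31) and of the N-terminal peptide (6.52 to 13.00), but with other probes high.

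**Figure D5:**
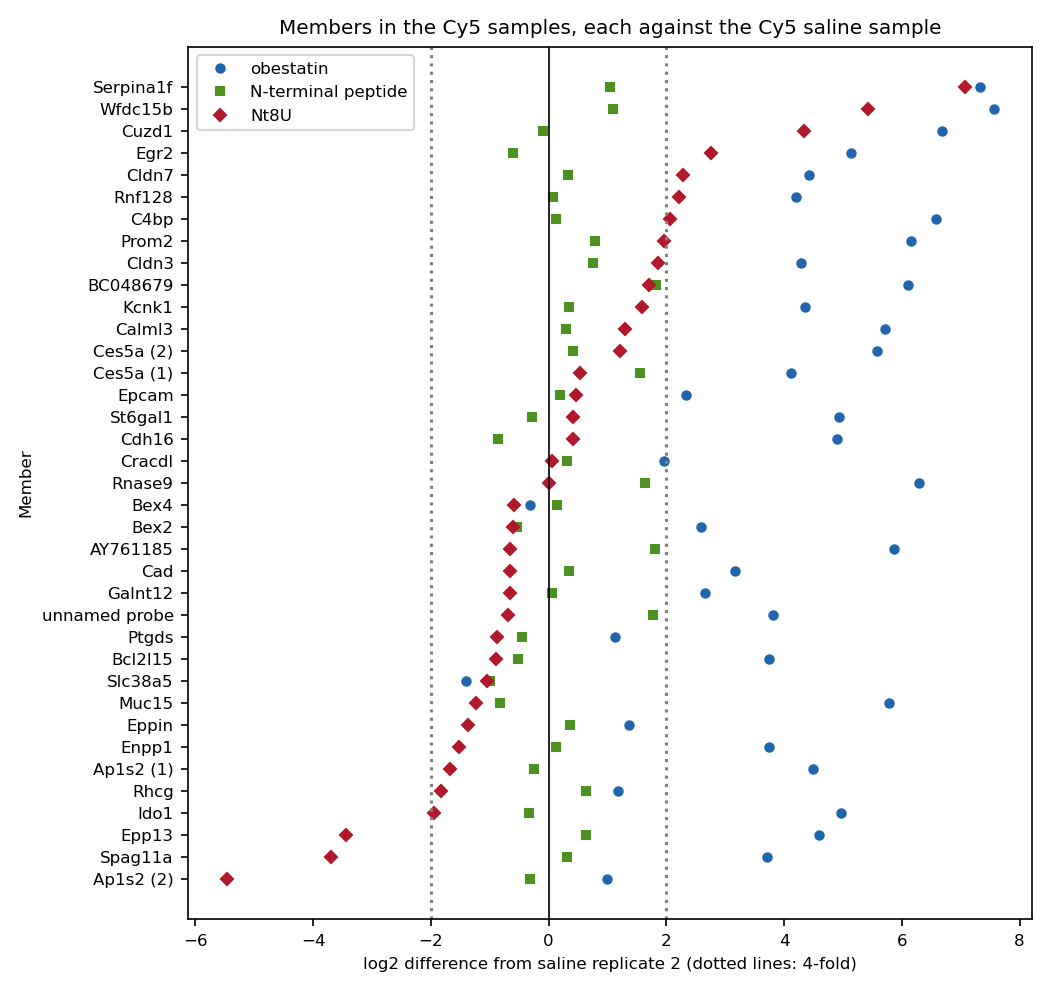
Log2 difference from saline replicate 2 (x axis) of each shared probe (y axis) in replicate 2 of obestatin (circles), the N-terminal peptide (squares) and Nt8U (diamonds), with dotted lines at 4-fold. Squares stay inside the dotted lines, 30 circles lie beyond the right one, and diamonds run from -5.46 for an Ap1s2 probe to 7.08 for Serpina1f.

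Genes outside the set were given from lists, to show where the set differs. The 11 left-out probes had medians of 15.23 and 8.65 with saline, 12.60 and 13.80 with obestatin, 14.90 and 8.69 with the N-terminal peptide, and 6.31 and 8.15 with Nt8U, and 10 of 11 were at least 4-fold higher in obestatin replicate 2 than in saline replicate 2. Of 25 other epididymal genes tested, 12 were at least 4-fold higher and 3 lower in that comparison, with a median difference of 1.31. Of 18 genes for fluid and ion transport, 5 were higher and 1 lower, with a median of 0.85. In Nt8U replicate 2 the counts were 3 higher and 2 lower of the 25, and 1 higher and 0 lower of the 18. Of the 11 left-out probes, 2 were higher and 4 lower there, with an SD of 3.41 across probes. The split in Nt8U replicate 2 was thus not particular to the set. The epididymis epithelium markers went another way, with 16 genes outside the set, some of them of the left-out families. In obestatin replicate 2, 7 of the 16 were higher and 6 lower, with a median of 0.57. In Nt8U replicate 2, 1 was higher and 8 were lower, with a median of -2.5. In N-terminal peptide replicate 2, 0 were higher and 7 lower.

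Several epididymal genes of the lists had another pattern and were high in saline replicate 1 alone among the Cy3 samples. Among them were Lcn8, Lcn9, Cst11, Rnase10, Ly6g5b and Ly6g5c. Lcn8 stood at 16.45 in saline replicate 1, against 7.50 with obestatin, 6.64 with the N-terminal peptide and 5.91 with Nt8U in Cy3. Ovch2, a gene of the epididymal epithelium, stood at 15.20 and 7.69 with saline, 7.26 and 7.76 with obestatin, 8.85 and 5.79 with the N-terminal peptide, and 6.12 and 6.09 with Nt8U. Teddm1a stood at 13.20 and 8.25 with saline and was not well above background in the other 6 samples (5.89 to 6.14). All of these contrast with the shared genes, which were high in both obestatin samples, and the difference between the patterns was not tested because the choice of genes fixed it in part.

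Each peptide was last compared with saline over both samples of a group, with limma on all 8 samples, group means and a dye term. These fits contain the choosing samples. For obestatin against saline, 0 of 28166 probes had an adjusted p under 0.05 (0%), while 2370 had an unadjusted p under 0.05. The 37 probes had a median log2 difference of 1.02, 31 higher and 6 lower, with a median SE of 2.25, against 0.05 over all probes. Wfdc15b was highest at 4.12 (SE 3.49, limma adjusted p = 0.654) and Slc38a5 lowest at -3.46 (SE 2.12, limma adjusted p = 0.648). Both obestatin samples lay above both saline samples for 5 of 37 probes, against 28.0% of all probes, namely AY761185, BC048679, a Ces5a probe, the unnamed probe and Wfdc15b. Both lay below for 2 of 37, Bex4 and Slc38a5, against 11.8%. These counts contain saline replicate 1, which had to be bright for a probe to be chosen, so they partly follow from the choice. By limma, a mean difference between obestatin and saline was not detected for any of these genes at this spread. The median log2 difference of the 37 probes was 3.06 without obestatin replicate 1 and 3.78 without the 3 choosing samples. Both fits leave some group with 1 sample, so only the size of the difference is given for them.

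For the N-terminal peptide against saline limma called 0 probes (0%), with 237 at an unadjusted p under 0.05, and the 37 probes had a median of 0.32, from -1.16 to 1.96. For Nt8U against saline it called 0 (0%), with 2248 at an unadjusted p under 0.05, and 36 of 37 probes were lower with a median of -3.40. Over all probes that median was -0.07, and the choice of probes had fixed the lower direction in Cy3. Nt8U is an analog of the N-terminal peptide, and at the same stated dose limma called 0 probes between them (0%), with 2980 at an unadjusted p under 0.05. All 37 shared probes were lower in Nt8U there, by a median log2 difference of -3.80, a direction the choice of probes fixed in Cy3. Both Nt8U samples lay below both obestatin samples for 34 of 37 probes, against 22.9% of all probes, and here 1 of the 4 samples, Nt8U replicate 1, had chosen them. The deposited lists of the authors for the N-terminal peptide hold 109 probes, beside 41174 on the array, and 0 of the 37 are among them. Lists this short could hold few of any 37 probes, so that count is no result about the set.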

How the data were processed

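Expression was measured in 8 samples on 4 two-channel Agilent arrays. Per the file headers, the deposited spot intensities come from a G2505C scanner and Feature Extraction 10.5.1.1. The median signal and median background of each channel were used. A table of log2 values deposited by the authors was made in GeneSpring GX with peptide samples scaled to saline of the same dye, per the deposited readme, and served as an alternative. Each column labelled Cy3 followed the red channel of its array and each labelled Cy5 the green one, and its scale beyond log2 and centring (column medians -2.90 to -2.14) is unknown. The deposited gene lists of the authors, with their p-values and log2 fold changes, were used only to look up the chosen probes.

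Background was corrected by normexp (offset 50), then each array was loess-normalized and the arrays were brought together by Aquantile, with limma 3.58.1 in R 4.3.3, each channel then being a sample. Control spots (weight 0 in loess) and 87 probes marked as outliers were removed. Saturated spots stayed in, a signal of 65527 counting as saturated, and repeated spots of 1 probe were averaged. The filter on dim probes, which asked for some group with both samples well above background, passed 28166 of 41174 probes, of which 21610 were well above it in all samples. Between 25035 and 30697 probes were well above background in a sample, and median signals lay between 71.0 and 224.8 intensity units; the number of arrays limits the precision. Symbols came from the platform annotation, where 32664 probes have 1 symbol, 45 several, and 8465 are not listed; they were updated by Entrez number with the GRCm38.p6 gene table, and 816 unlisted probes were named by RefSeq accession. The left-out families were applied to these symbols.

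Group means and a dye term were fitted to all 8 samples (3 residual and 1.67 prior degrees of freedom), with empirical Bayes, Benjamini-Hochberg adjustment over 28166 probes, two-sided tests and a threshold of 0.05. The fitting script was tested on simulated data. The chosen genes, lists and tests were set with earlier results of these data known. Every chosen gene was named, with values per sample for those known from the epididymis or departing most from the median. A single sample was never tested against another. A bound for a probe not well above background sets the brighter level against the higher of the lowest signal well above background and the probe's own.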

Additional observations from a re-analysis of the deposited data

How the results depend on the processing

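In the settings tried, limma called 0 probes in each of the 4 comparisons, with these exceptions. For obestatin against saline it called 3807 without obestatin replicate 1 (0 to 3807 over the samples left out in turn, 0 of the 37 shared probes among them) and 12609 without the 3 choosing samples (31 of the 37 among them, 30 higher), where the spread came from the obestatin pair alone and lone samples were assumed to vary like it. For Nt8U against saline it also called some probes without the 3 samples that were richest in germ cell genes, an alternative chosen after seeing the data. That fit set Nt8U replicate 1 against saline replicate 1, both choosing samples, and its spread again came from the obestatin pair alone. The choice had fixed the direction of the shared probes there, so calls among them are no result. The median of the shared probes for obestatin against saline ran from -0.83 to 3.49 with 1 sample left out; it was -0.83 without saline replicate 2, -0.53 without obestatin replicate 2 and -0.97 without the 3 germ cell rich samples. Leaving out 1 sample moved it from -1.90 to 2.60 for the N-terminal peptide (-1.51 without saline replicate 2), from -6.12 to -0.90 for Nt8U against saline, and from -6.69 to -1.06 for Nt8U against the N-terminal peptide. Without the choosing samples the last 2 medians were 0.02 and -0.24. Without the germ cell rich samples they were -7.06 and -7.81, but only choosing samples then remained on either side, so the choice fixed their direction. Wfdc15b ran from 1.14 to 7.11 and Slc38a5 from -5.52 to -1.40. The dye term is the replicate block here, since replicate 1 is Cy3 and replicate 2 is Cy5 in every group, and without it (no replicate block) the medians were 1.02, 0.32, -3.40 and -3.80 and 0 probes were called.

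The authors' log2 values moved single-sample results because their dye labels are opposite. The median of the shared probes above the 75th percentile was 4.97 and -0.19 in saline (replicates 1 and 2) and -0.13 and 4.85 with the authors' values. It was 3.51 and 4.48 against 4.86 and 3.71 in obestatin, 5.83 and 0.50 against 0.61 and 5.64 for the N-terminal peptide, and -2.04 and 0.25 against 0.25 and -2.31 in Nt8U. Against saline replicate 2 the authors' values put 0 shared probes at least 4-fold higher and 14 lower in obestatin replicate 2, and 0 higher and 37 lower in Nt8U replicate 2. These columns follow the green channel, so saline replicate 1 and Nt8U replicate 1 of the readme, both choosing samples, entered the counts. The choice thus fixed the Nt8U count and in part the obestatin count, and neither is an alternative to the Cy5 comparison. Without loess, 5 were higher in N-terminal peptide replicate 2, 11 were higher in Nt8U replicate 2, and 25 were higher in obestatin replicate 2 than in replicate 1. With the scanner software's processed signals, 3 were higher in N-terminal peptide replicate 2 and 7 lower in Nt8U replicate 2. The cause of these shifts without loess and with processed signals was not tested. These 4-fold alternatives were added after seeing the data. No share of all probes was computed for them, so their counts are no results about the shared probes alone. A random array block was planned but not run, since no group spans more than 1 array. Signals near background limit the Nt8U levels, where 12 shared probes were dim in replicate 1.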
